A study of Arabidopsis thaliana with 9 samples.

Results

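Root meristem growth factors (RGF, also called GOLVEN or GLV) are small secreted peptides of plants. They are cut from longer precursors, and a tyrosine in the active peptide is sulfated in the Golgi by TPST, the tyrosylprotein sulfotransferase, with the sulfate donor PAPS. The sulfated peptides bind RGI receptor kinases at the cell surface, which act with SERK co-receptors and a MAP kinase cascade, and in the root meristem this signal raises the amount and range of the PLETHORA (PLT) transcription factors. Roots that lack TPST have small meristems and a disturbed quiescent centre (QC), the organising cells in the middle of the root stem cell niche.

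The genes described here were 7 of 21430 loci on the arrays, chosen by name with earlier results of these data known. They were the peptide genes RGF3, RGF4, RGF6, RGF7, RGF8 and RGF9 and the enzyme gene TPST. The family members RGF1, RGF2, RGF5 and GLV8 were not analysed here. The study asked which genes respond in QC cells when the PLT2 protein is released into the nucleus. Every array came from Arabidopsis thaliana plt1plt2 double mutants that carried PLT2::PLT2-GR, a complementing fusion of PLT2 to the glucocorticoid receptor driven by the PLT2 promoter, and WOX5::erGFP, a reporter for sorting QC cells. Seedlings 5 days after germination were incubated with solvent for 1 h (mock), with 10 µM dexamethasone for 1 h, or with 10 µM dexamethasone for 4 h, with 3 arrays per group. Root tips were then turned into protoplasts, GFP-positive cells were sorted, and their total RNA was hybridised to 1-colour arrays. There was no mock group at 4 h, so that 4 h of dexamethasone and the longer incubation cannot be told apart, and no dexamethasone-treated plants without the fusion were included. The labels call the 3 arrays of a group biological replicates; p-values rest on the spread between those arrays.

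Values are log2 levels per probe set as the authors deposited them, and a difference of 1 is a 2-fold change. A gene was called when its Benjamini-Hochberg adjusted p from a limma model of all 9 arrays, adjusted over all 21430 loci, was under 0.05. Errors after ± are standard errors of that model unless marked SD. Levels of different genes are not set against each other, because probe sets differ in brightness.

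Within each group, arrays correlated at 0.9902 or more over all loci. Replicate 1 at 4 h stood apart in the control RNAs that are added to samples before labelling: their mean log2 level was 8.12 on this array and 5.78 to 6.23 on the other 8. Its 5S ribosomal RNA control probe set, which is not an added control, was also highest, at 5.63 against 4.59 to 5.04. WOX5 was not analysed here. Of the niche markers measured, SCR had a mock level of 8.55, while AGL42 had 2.88, under the lower quartile of the arrays (3.55 to 3.63). The root cap marker locus AT1G65570 had 11.55. Because probe sets differ in brightness, these levels do not settle which cells the sorted populations held. Because the RNA is that of a sorted population, a change in the cells that make it up and a change in RNA per cell cannot be told apart.

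RGF8, RGF3 and RGF4 were called higher after 4 h of dexamethasone than in the 1 h mock, and were not called at 1 h. RGF6, RGF7, RGF9 and TPST were not called in any comparison. After 4 h, 3 of the 7 genes rose against mock, 0 fell and 4 were not called; of all loci, 10.8% were called in this comparison and 5.53% were called higher. After 1 h, limma called 0 of the 7, where 0.187% of all loci were called. At an unadjusted p under 0.05 the count at 1 h was 3 of 7 (RGF8, RGF3 and RGF4), against 4.34% of all loci. Because the 7 were chosen with earlier results of these data known, these shares are no test of enrichment. Between 1 h and 4 h, 0 of the 7 were called, where 1.85% of all loci were, and 0 had an unadjusted p under 0.05. The median log2 fold change of the 7 genes was 0.09 at 1 h and 0.10 at 4 h, against -0.01 and 0.01 over all loci.

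**Figure D1:**
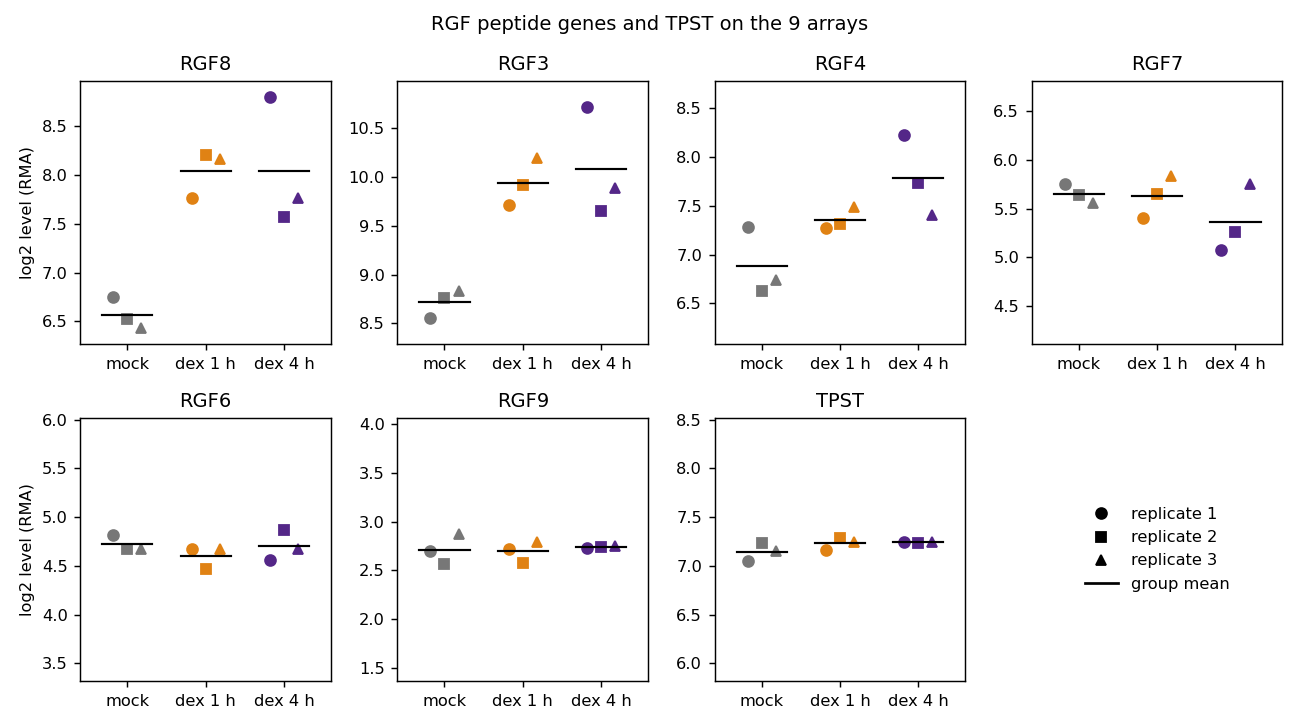
Log2 level of each gene on the 9 arrays, in mock, after 1 h and after 4 h of dexamethasone (dex); points are arrays, symbols are replicate numbers, lines are group means, and every panel spans the same range of log2 units. For RGF8 and RGF3 all 3 arrays at 1 h and all 3 at 4 h lie above all 3 in mock, and replicate 1 at 4 h is the highest array for RGF8, RGF3 and RGF4.

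RGF8 (AT2G03830, also GLV6), a peptide gene known from the initiation of lateral roots, had the largest difference of the 7 at both times. After 1 h of dexamethasone its 3 arrays read 7.77, 8.21 and 8.16, against 6.75, 6.52 and 6.43 in mock. The groups did not overlap, and the lowest array at 1 h lay 1.02 above the highest in mock. The log2 fold change was 1.48 ± 0.27, a 2.79-fold difference (95% interval of the log2 fold change 0.89 to 2.07), but RGF8 was not called with all 9 arrays in the limma model (adjusted p = 0.0906). After 4 h its arrays read 8.80, 7.57 and 7.77, against the same mock arrays. All 3 again lay above mock, with replicate 1 about a log2 unit above the other two. RGF8 rose by 1.48 ± 0.27 at 4 h (limma adjusted p = 0.00956), also 2.79-fold.

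The level of RGF8 after 4 h, 8.05 ± 0.66 (SD, n = 3), was the same on average as after 1 h, 8.05 ± 0.24. The difference between these times was 0.00 ± 0.27, with a 95% interval of -0.59 to 0.59. A further change within that interval between 1 h and 4 h was not detectable with these arrays.

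RGF3 (AT2G04025, also GLV7), which acts redundantly with RGF1 and RGF2 in keeping up the root meristem, had the same shape. Its arrays read 9.71, 9.92 and 10.20 after 1 h, against 8.55, 8.76 and 8.83 in mock, a gap of 0.87 between the nearest arrays. The log2 fold change of 1.23 ± 0.24, 2.34-fold, was not called with all 9 arrays (limma adjusted p = 0.129). After 4 h the arrays read 10.72, 9.65 and 9.89, all above mock, and RGF3 rose by 1.37 ± 0.24, 2.59-fold (limma adjusted p = 0.00837). Between the times it differed by 0.14 ± 0.24 (95% interval -0.38 to 0.67).

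Whether these genes were called at 1 h depended in part on the spread among the 4 h arrays, which the model pools with that of the other groups. The same pooled spread enters the comparison of 4 h with mock. The SD of RGF8 was 0.16 for mock, 0.24 at 1 h and 0.66 at 4 h. That of RGF3 was 0.15 for mock, 0.25 at 1 h and 0.56 at 4 h. With only the 1 h and mock arrays fitted, the same fold changes had standard errors of 0.13 and both genes were called (limma adjusted p = 0.00463 for RGF8 and 0.00989 for RGF3). Without replicate 1 at 4 h, the array with the high added controls and 5S signal, both were likewise called at 1 h (limma adjusted p = 0.0024 and 0.00668). Of the 9 fits with 1 array left out, this was the only 1 that called either gene at 1 h. In the others the limma adjusted p reached 0.472 for RGF8 and 0.639 for RGF3. With a block for replicate number it was 0.118 and 0.199. Of the 7 genes, 2 had all 1 h arrays above all mock arrays, RGF8 and RGF3, and 5.73% of all loci did. In order of p among all loci, RGF8 was number 51 and RGF3 number 58 at 1 h, and they were numbers 484 and 364 at 4 h. The unadjusted limma p of RGF8 was 0.000216 at both times. Its adjusted p differed because the adjustment ran over the p-values of all loci in each comparison, and more loci were called at 4 h.

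**Figure D2:**
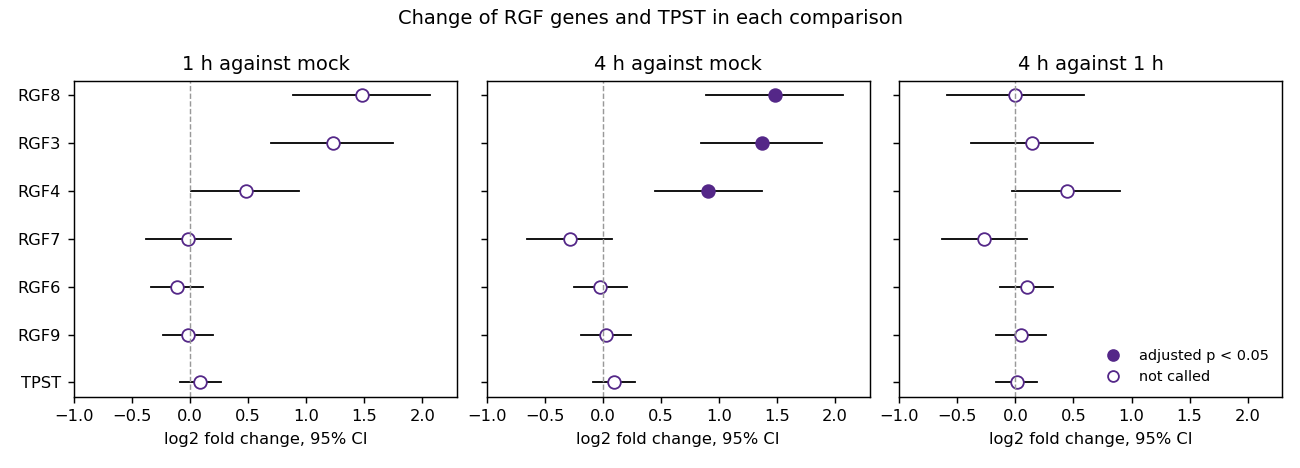
Log2 fold change of each gene with its 95% interval from the limma model in the 3 comparisons; filled points passed an adjusted p of 0.05. RGF8 and RGF3 have similar values at 1 h and 4 h, RGF4 lies at 0.48 at 1 h and 0.91 at 4 h, and the 4 other genes lie between -0.28 and 0.10 in both comparisons with mock.

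RGF4 (AT3G30350, also GLV3), a member of the family studied in the gravity response of roots, was called at 4 h, with a smaller fold change than RGF8 and RGF3. After 1 h its arrays read 7.27, 7.31 and 7.49, against 7.28, 6.63 and 6.74 in mock. Replicate 1 of mock lay as high as the lowest 1 h array, so the groups overlapped, and the log2 fold change was 0.48 ± 0.21 (limma adjusted p = 0.998). After 4 h the arrays read 8.23, 7.73 and 7.41, all above mock, the nearest by 0.14. RGF4 rose by 0.91 ± 0.21 at 4 h, 1.88-fold (limma adjusted p = 0.0228). The step between 1 h and 4 h was 0.44 ± 0.21 (limma adjusted p = 0.268), so a later timing of RGF4 than of RGF8 and RGF3 was not shown.

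The rise of RGF4 rested on single arrays more than those of RGF8 and RGF3. It was not called without replicate 1 at 4 h (0.69 ± 0.18, limma adjusted p = 0.062), without replicate 2 at 4 h (adjusted p = 0.0581), without mock replicate 2 (0.0991) or without mock replicate 3 (0.0858). It was also not called with only the 4 h and mock arrays fitted (0.0626). RGF8 and RGF3 were called at 4 h with any 1 of the 9 arrays left out, with log2 fold changes of 1.10 to 1.72 for RGF8 and 1.05 to 1.59 for RGF3. The lowest of each came without replicate 1 at 4 h. Of the 7 genes, 3 had all 4 h arrays above all mock arrays, and 14.3% of all loci did.

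**Figure D3:**
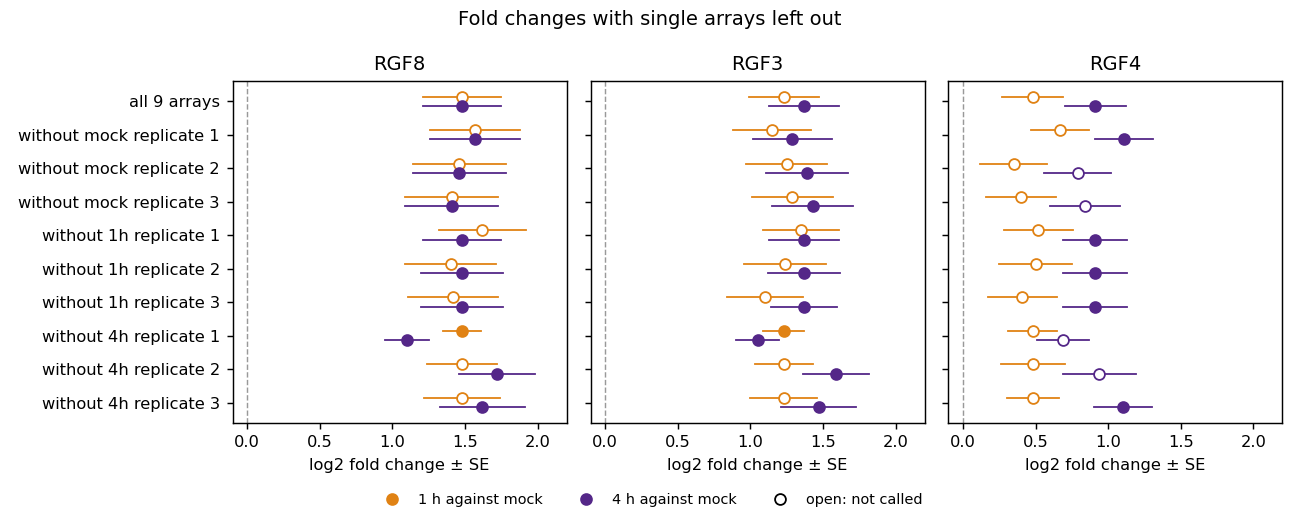
Log2 fold change (± standard error) of RGF8, RGF3 and RGF4 against mock after 1 h and 4 h, with all 9 arrays and with each array left out in turn; filled points passed an adjusted p of 0.05. RGF8 and RGF3 stay above 1 throughout, their 1 h values pass only when replicate 1 at 4 h is left out, and RGF4 at 4 h fails in 4 of the 9 cases.

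RGF7 (AT3G02240, also GLV4) had the lowest fold change of the peptide genes at 4 h, and it was not called. Its arrays read 5.08, 5.26 and 5.75 after 4 h, against 5.75, 5.64 and 5.56 in mock. Replicate 3 at 4 h lay at the top of the mock range while the other two lay below it, and the log2 fold change was -0.28 ± 0.16 (limma adjusted p = 0.31). Without replicate 3 at 4 h it was -0.48 ± 0.13 and called (limma adjusted p = 0.0301). After 1 h the arrays read 5.40, 5.65 and 5.84, on both sides of the mock values, with a log2 fold change of -0.02 ± 0.16.

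RGF6 (AT4G16515, also GLV1) and RGF9 (AT5G64770, also GLV2), both studied as gravity response peptides like RGF4, showed no difference beyond their spread. RGF6 read 4.67, 4.47 and 4.67 after 1 h and 4.56, 4.87 and 4.67 after 4 h, against 4.82, 4.67 and 4.67 in mock. The log2 fold changes were -0.11 ± 0.10 and -0.02 ± 0.10. The deposited value of RGF6 was identical on 5 of the 9 arrays, as for 0.863% of loci, so that it took 5 distinct values in all. RGF9 read 2.72, 2.57 and 2.79 after 1 h and 2.73, 2.74 and 2.75 after 4 h, against 2.70, 2.56 and 2.87 in mock. It lay below the lower quartile of the array on all 9 arrays, at percentile 1.4 of all loci by mean level. At such a dim signal a change of RGF9 may not be measurable.

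TPST (AT1G08030), the enzyme that sulfates the RGF peptides, was not called and varied little. Its arrays read 7.16, 7.29 and 7.25 after 1 h and 7.25, 7.23 and 7.25 after 4 h, against 7.05, 7.23 and 7.15 in mock. The log2 fold changes were 0.09 ± 0.08 at 1 h (95% interval -0.09 to 0.27) and 0.10 ± 0.08 at 4 h (-0.08 to 0.28; limma adjusted p = 0.487). TPST lay above the median of all 9 arrays, and the upper bounds of its intervals lay below the lower bounds of those of RGF8 and RGF3 at 4 h, 0.89 and 0.85.

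Across the 9 arrays the levels of RGF8 and RGF3 ran together (Pearson r = 0.97), and those of RGF4 followed RGF8 (0.84) and RGF3 (0.80). These correlations hold both the group differences and replicate 1 at 4 h, which was the highest array for all 3 genes and the lowest for RGF7. Of the genes not called, TPST had positive correlations with RGF8 (0.62) and RGF3 (0.70), RGF6 and RGF7 had negative ones with RGF8 (-0.49 and -0.36), and RGF9 stood at -0.04. Among all loci, the level most like that of RGF8 over the 9 arrays was LAX2, an auxin influx carrier (r = 0.980), followed by AT1G47670 (0.975) and EXL3 (0.974). AT1G47670 was not called at 1 h or 4 h (limma adjusted p = 0.998 and 0.0846), while LAX2 and EXL3 were called at both times. These loci and those named next were picked by the highest r among all loci, so a high r is no test of a link. For RGF3 the nearest were SCRM2, a bHLH factor of the stomatal lineage (0.986), AT2G46850 (0.982) and APK (AT2G14750), a kinase that makes PAPS (0.979). For RGF4 they were AT3G19300 (0.991), AT3G61100 (0.988) and AT3G13780 (0.984), of which AT3G61100 and AT3G13780 rose at 4 h, by 0.62 ± 0.13 and 0.56 ± 0.13 (limma adjusted p = 0.0191 and 0.0248), and AT3G19300 was not called (0.0521). Both calls were lost without mock replicate 2 or 3, and that of AT3G13780 also without replicate 1 or 2 at 4 h (limma adjusted p of 0.0523 to 0.103).

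The partners of the RGF peptides were counted by role, to be read against the 10.8% of all loci called at 4 h. Of 5 leucine-rich repeat receptor kinase loci listed as RGI receptors, which the gene table gives no RGI names, 2 rose, 1 fell and 2 were not called at 4 h. AT1G34110 had log2 levels of 8.20, 8.16 and 8.20 after 4 h, against 7.09, 7.03 and 6.92 in mock, and was called at 1 h as well, at 0.64 ± 0.08. The 1 h call was lost without any 1 of the 1 h arrays or without mock replicate 2 or 3 (limma adjusted p of 0.0664 to 0.0934). AT5G48940 read 8.87, 8.56 and 8.33 after 4 h, against 7.46, 7.43 and 7.36 in mock, and AT5G56040 (SKM2) read 7.04, 7.12 and 7.84, against 8.69, 8.69 and 8.82. AT3G24240 stood at 0.35 ± 0.10 and AT4G26540 at 0.24 ± 0.09 at 4 h. AT4G26540 was dim, with a mean of 2.99 in mock and 3.23 at 4 h, under the lower quartile of the arrays. The called receptor loci thus went in both directions.

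Of 9 co-receptor and MAP kinase genes, SERK2 rose at 4 h by 0.53 ± 0.12 and 8 were not called, with a list median of -0.06. The SERK2 call was lost without replicate 1 or 2 at 4 h or without mock replicate 2 (limma adjusted p of 0.05 to 0.0646). Of 4 measured regulators downstream, 0 were called at either time, and 0 had an unadjusted p under 0.05 against mock. PLT2 read 9.14, 8.84 and 8.79 after 1 h, against 8.66, 8.53 and 8.55 in mock. Its 1 h arrays thus lay above mock, at a log2 fold change of 0.34 ± 0.16 (limma adjusted p = 0.998). All plants were plt1plt2 mutants with the PLT2-GR fusion, so the PLT2 probe set may read the fusion, the mutant locus or both. PLT1 is likewise a mutant locus here, so neither value can be read as that of an intact native gene. At 4 h PLT2 stood at -0.02 ± 0.16, PLT1 at 0.09 ± 0.09, and UBP12 and UBP13, ubiquitin proteases, at -0.11 ± 0.09 and -0.07 ± 0.10. The precursor-cutting subtilases S1P and TPP2 had -0.16 ± 0.08 and 0.12 ± 0.10 at 4 h, and neither was called.

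PAPS, the sulfate donor of TPST, also serves glucosinolate synthesis, so the enzymes that supply it are not specific to peptides. Of 9 genes of sulfate activation and PAPS supply, 3 rose, 0 fell and 6 were not called at 4 h (list median 0.34), and 1 rose at 1 h. Of those not called, the ATP sulfurylase genes APS2 and APS4 had negative values at 4 h, -0.38 ± 0.12 and -0.21 ± 0.12. AKN2 (AT4G39940), an APS kinase that makes PAPS, read 7.42, 6.84 and 7.08 after 4 h, against 5.40, 5.07 and 5.03 in mock, and rose by 1.95 ± 0.16 (limma adjusted p = 0.000247). It was called at 1 h at 1.41 ± 0.16, but not without 1h replicate 2 or 3 or mock replicate 2 or 3 (limma adjusted p of 0.0518 to 0.0778). The APS kinase gene APK and SAL1, which removes the product left from PAPS, rose at 4 h by 0.92 ± 0.14 and 0.79 ± 0.12. Their values at 1 h were 0.76 ± 0.14 and 0.35 ± 0.12.

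Of 11 measured loci of other tyrosine-sulfated peptides, 1 was called at 4 h, a share near that of all loci. At 1 h, of these loci, which include the phytosulfokine genes PSK1 to PSK5 and PSY1, 0 were called, with 0 at an unadjusted p under 0.05 and log2 fold changes of -0.18 to 0.21. The locus called at 4 h, AT1G28375, rose by 0.35 ± 0.09 from a dim mock level of 3.10, and this call was lost without 1h replicate 2, 4h replicate 2 or any 1 mock array (limma adjusted p of 0.0518 to 0.0975). PSK3 had the largest value, 0.63 ± 0.30, and was not called. Its arrays read 6.33, 5.29 and 4.74 at 4 h, against 4.88, 4.69 and 4.91 in mock, so that value rested most on replicate 1 at 4 h. Of 5 receptors of these peptides, 0 were called at 4 h. An unadjusted p under 0.05 was found for 2, PSY1R at -0.52 ± 0.19 and GSO1 at -0.46 ± 0.14, against 26.8% of all loci. GSO1 is also counted among the endodermis markers below.

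**Figure D4:**
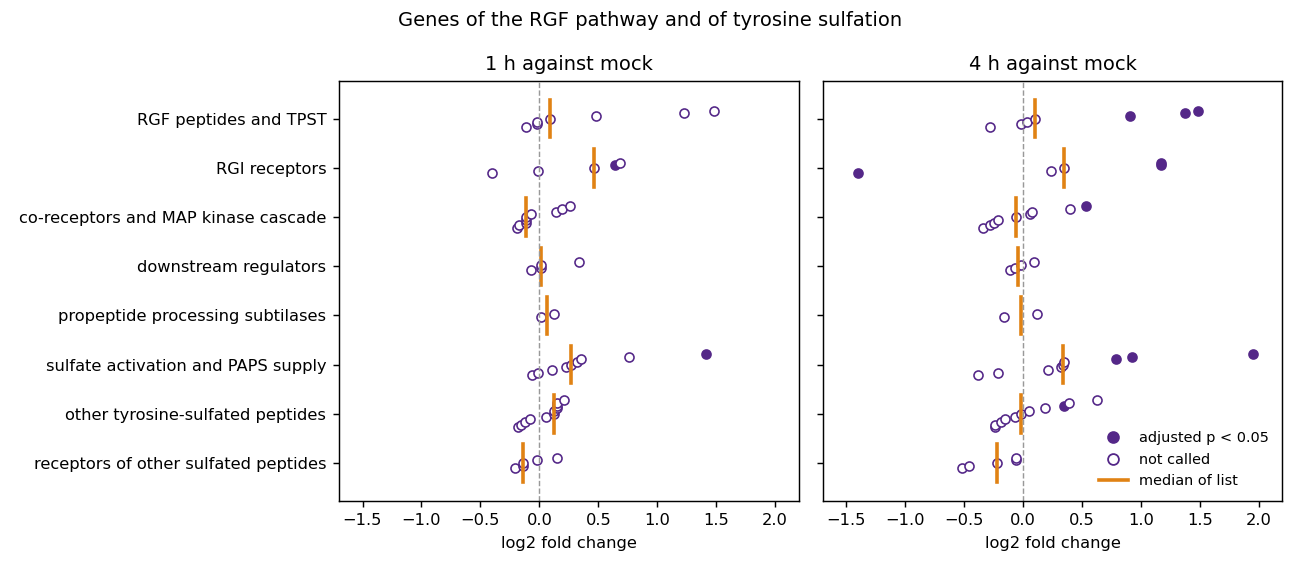
Log2 fold change of every measured gene of each list after 1 h (left) and 4 h (right) against mock; points are genes, filled where the adjusted p was under 0.05, and orange bars are list medians. At 4 h the called genes are RGF8, RGF3 and RGF4, 3 RGI receptor loci of which 1 fell, SERK2, 3 genes of PAPS supply and AT1G28375.

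Of 20 markers of other root cell types, 1 rose, 4 fell and 15 were not called at 4 h, with a median log2 fold change of -0.40; of all loci, 5.53% were called higher and 5.23% lower. At 1 h 0 were called, with a median of -0.11, and 2 had an unadjusted p under 0.05, against 4.34% of all loci. At 4 h, 12 of the 20 had an unadjusted p under 0.05, against 26.8% of all loci. Of the 20, 4 had a positive log2 fold change at 4 h. The marker that rose was FEZ, a transcription factor of root cap stem cells, at 0.97 ± 0.24 (limma adjusted p = 0.0279), and its 1 h value was 1.03 ± 0.24 (0.29). Those that fell were RHD6 of the epidermis (-0.81 ± 0.16), ESB1 of the endodermis (-0.52 ± 0.14) and the vascular markers XCP1 (-0.69 ± 0.15) and BHLH32 (-0.52 ± 0.11). Each call was lost without certain single arrays: FEZ without mock replicate 2 or 3 or 4h replicate 1 (limma adjusted p of 0.0836 to 0.117), RHD6 and BHLH32 without mock replicate 2 (0.0658 and 0.0716), XCP1 without mock replicate 1 or 4h replicate 1 or 2 (0.0538 to 0.0579), and ESB1 without any 1 of the arrays except 4h replicates 2 and 3 (0.0592 to 0.172).

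The log2 of the summed signal of 7 root cap markers was 11.56 to 11.89 at 4 h, against 11.90 to 12.25 in mock. AT1G65570 had most of that sum, and without it, a sum added after seeing the data, the other 6 markers overlapped mock, at 9.78 to 10.36 against 10.33 to 10.55. For 4 endodermis markers the sum was 6.86 to 7.21 at 4 h, against 7.41 to 7.82 in mock. For 5 vascular markers it was 7.35 to 7.43, against 7.67 to 8.18, and XCP1 had most of that sum. At 4 h XCP1, BHLH32 and APL (-0.12 ± 0.11) had negative log2 fold changes, while SUC2 (0.20 ± 0.11) and VND7 (0.05 ± 0.11) had positive ones. For 4 epidermis markers the sum was 8.65 to 9.02, which overlapped the 8.95 to 9.06 of mock. At 1 h the sums of all 4 of these lists overlapped those in mock. The sum of the 3 QC and niche markers was 8.93 to 9.12 at 1 h and 8.92 to 9.03 at 4 h, against 8.79 to 8.88 in mock. SCR had most of that sum, with log2 fold changes of 0.16 ± 0.09 at 1 h and 0.17 ± 0.09 at 4 h. SHR stood at 0.23 ± 0.18 and -0.09 ± 0.18, and AGL42 at -0.13 ± 0.10 and 0.00 ± 0.10. Of the 3, 0 were called at either time and 0 had an unadjusted p under 0.05. The part of these marker values in the values of RGF8, RGF3 and RGF4 was not tested.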

How the data were processed

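The deposited log2 values, 1 per probe set and array, were made by the authors; the tools named, per the submitters' processing notes, are RMA and limma 3.24.15. The sources used here give neither array type nor probe set definition nor genome build, so probes shared between paralogs cannot be recognised, and no coordinates are given. Of 21494 probe sets, 64 controls were left out; 21231 of the other 21430, each 1 locus, matched the TAIR10.1 gene table, as did all 7 genes described.

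Values were used without further normalization or filter. A limma 3.58.1 model (R 4.3.3, lmFit and eBayes) of the 3 group means was fitted to all 9 arrays, with 6 residual and 4.47 prior degrees of freedom and two-sided contrasts. Over loci the standard errors had a median of 0.108 log2 units at 1 h against mock, and precision is limited by the number of arrays. The procedure was tested on simulated data with changes planted at 4 h and the same spread in all groups. That test did not cover the wider spread among the 4 h arrays. Lists were described by counts and medians, without a set test.

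The members and lists were chosen with earlier results of these data known. Named by rule were all 7 genes, every receptor, downstream and subtilase locus, up to 3 called genes with the smallest p in each other list, and the 3 loci best correlated with each called member; PSK3, PSY1R, GSO1, APS2, APS4 and the called cell type markers were named after their values were seen. The main model did not pair arrays by replicate number. The correlations given below do not settle whether same-numbered arrays share a batch. Alternatives were quantile normalization, median centring, leaving out loci below the 40th percentile, trend and robust eBayes, array weights, a block for replicate number, fits to just the arrays of both groups compared, an added minimum of 1 for the absolute log2 fold change, and the removal of each array in turn.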

Additional observations from a re-analysis of the deposited data

How the results depend on the processing

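The count of called genes among the 7 was 0 at 1 h. It was 2 with array weights and 2 with only the 1 h and mock arrays fitted, RGF8 and RGF3 each time, and 0 to 2 with single arrays left out. At 4 h against mock it was 3, with 2 to 4 when single arrays were left out, 2 with only the 4 h and mock arrays or with a log2 change of at least 1 also required, and 3 under the other alternatives. Between 1 h and 4 h it was 0, and 0 to 1 with single arrays left out, the 1 being RGF7 without replicate 3 at 4 h. The 40th percentile filter removed RGF6 and RGF9. No called value changed sign under any alternative run. Over all loci the counts with all arrays were 40, 2305 and 397 for 1 h and 4 h against mock and 4 h against 1 h. Without single arrays they ranged over 6 to 61, 688 to 4153 and 3 to 2808, and under the other alternatives over 23 to 79, 171 to 3100 and 4 to 1699. With the replicate number as a block the 7 genes gave 0, 3 and 0 calls, the same as without it. Same-numbered arrays of different groups had correlations of their deviations from -0.13 to 0.27, 2 of 9 above 0.1, and 5 of 9 arrays correlated best with an array of their own number. With 3 arrays a group and dim signals for RGF9, small changes would not have been detected.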
